A study of Mus musculus with 10 samples.

Results

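Cells grip the matrix around them at focal adhesions, plaques in which clustered integrins are tied to actin filaments by a layer of adaptor proteins. The genes described here are 34 that encode this machinery, taken by gene symbol from a list of the parts of that plaque: talins, kindlins, vinculin and tensins, the ILK-PINCH-parvin complex, the kinases and scaffolds of adhesion signalling, actin crosslinkers, the zyxin and Ena/VASP proteins, and Rac1, Rhoa and Cdc42 with the ROCK kinases. All 34 had a row among the 23510 rows of the gene table. They were measured in lymphatic endothelial cells (LEC), which line lymphatic vessels, sorted by FACS from MT-ret melanomas that had been grown from tumour pieces implanted in 10 C57BL/6N mice. Of these mice, 5 were given control IgG and 5 were given anti-Ang2, in both cases by intraperitoneal injection, and all were killed 12 h later. Both groups therefore carried the same tumour, were of 1 strain and, as far as the labels say, differed in the antibody. No age, antibody clone or dose is used here. Each mouse gave 1 RNA-seq library, so n = 5 per group throughout, and the question was what acute loss of Ang2 activity does to the expression of these genes in tumour LEC.

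Integrins hold no enzyme of their own, so whatever an adhesion bears or signals passes through the proteins bound to their tails. Talin and kindlin switch integrins on, vinculin and tensin join them to actin, and focal adhesion kinase with Src turns engagement into phosphorylation of scaffolds such as paxillin and p130Cas. In lymphatic vessels, whose endothelium is anchored to the surrounding matrix, this link is known to pull on the cells when tissue swells. Angiopoietin-2 (Ang2) is a ligand of the receptor tyrosine kinase Tie2 on endothelium, and signalling from Tie2 is known to act on endothelial junctions and adhesion to matrix.

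The libraries held 38090933 to 83850341 gene counts, and 19201 to 21215 genes had a count. Summed over the 34 genes, the share of all counts was 1.01 ± 0.0430% under IgG and 1.01 ± 0.0390% under anti-Ang2 (SD, n = 5). Lymphatic markers were abundant in every library, led by Mmrn1 and Lyve1 with IgG means of 6658 and 4655 CPM (counts scaled per library to a common total, with TMM factors), and the sum of 10 such markers ran from 19283 to 22941 CPM under IgG and from 15985 to 21181 under anti-Ang2. Markers of other cell types had counts too, and which cells that RNA came from was not tested. The sum of 12 melanoma markers ran from 269 to 1869 CPM under IgG and from 1139 to 5603 under anti-Ang2, with 5603, 3988 and 4588 in anti-Ang2 libraries 1 to 3 against 1720 and 1139 in libraries 4 and 5 (p = 0.0476 by a two-sided exact permutation test, and 0.0952 after adjustment over 8 marker lists). The sum of 15 macrophage and monocyte markers was 24.9 to 177 CPM under IgG and 37.8 to 264 under anti-Ang2. That of 10 blood endothelial markers was 3621 to 5851 CPM and 2513 to 5100 CPM (exact permutation p = 0.0317). Plvap made up most of the blood endothelial sum, with means of 4022 CPM under IgG and 2216 CPM under anti-Ang2. The median log2 fold change over that list was 0.04. Pericyte and smooth muscle markers summed to 60.7 to 242 CPM and 155 to 444 CPM (exact permutation p = 0.0317). Within that list the means of Cspg4 (53.2 to 172 CPM), Kcnj8, Abcc9 and Acta2 rose. Those of Pdgfrb, Rgs5, Notch3, Des, Myh11 and Higd1b were lower, and the list's median log2 fold change was -0.43. T cell markers summed to 24.1 to 36.2 CPM and 13.3 to 25.1 CPM (exact permutation p = 0.0159). Most of that sum was Lck (means 19.8 and 13.6 CPM) and Cd2 (6.49 and 5.22 CPM), with Cd3e at 0.705 and 0.0999 CPM. Fibroblast and keratinocyte markers summed to at most 923 and 4.03 CPM in any library. None of the 8 lists passed after adjustment (lowest adjusted exact permutation p = 0.0847). Anti-Ang2 libraries 5 and 4 had the lowest quality weights (0.417 and 0.606, the others 0.911 to 1.43). In sorted bulk RNA of this kind, fewer cells of a type and less RNA per cell cannot be told apart.

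Of the 34 genes, 3 passed the edgeR threshold, all of them lower after anti-Ang2, while the authors' deposited table also held Tns3 as higher. With edgeR's quasi-likelihood test and Benjamini-Hochberg adjustment over 16240 genes, Tns2, Tln2 and Ptk2 fell after anti-Ang2, and no member rose. That is 8.82% of the 34 lower against a background of 2.8% of all genes tested, and 0 higher against 1.34%. All 34 had passed the filter on low counts. Their log2 fold changes split evenly, 17 above and 17 below 0, with a median of 0.02 beside 0.01 for all genes tested. At an unadjusted edgeR p under 0.05 there were 10 of the 34 members, 4 with positive and 6 with negative values, against 18.2% of all genes. For 25 of the 34, the 95% interval of the change lay within 1.5-fold in either direction. These include Ptk2, which was called, and Lpp, Actn1 and Bcar1, whose intervals exclude 0. They also include Rac1 and Vcl, whose counts are uncertain because of exons shared with other genes.

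**Figure D1:**
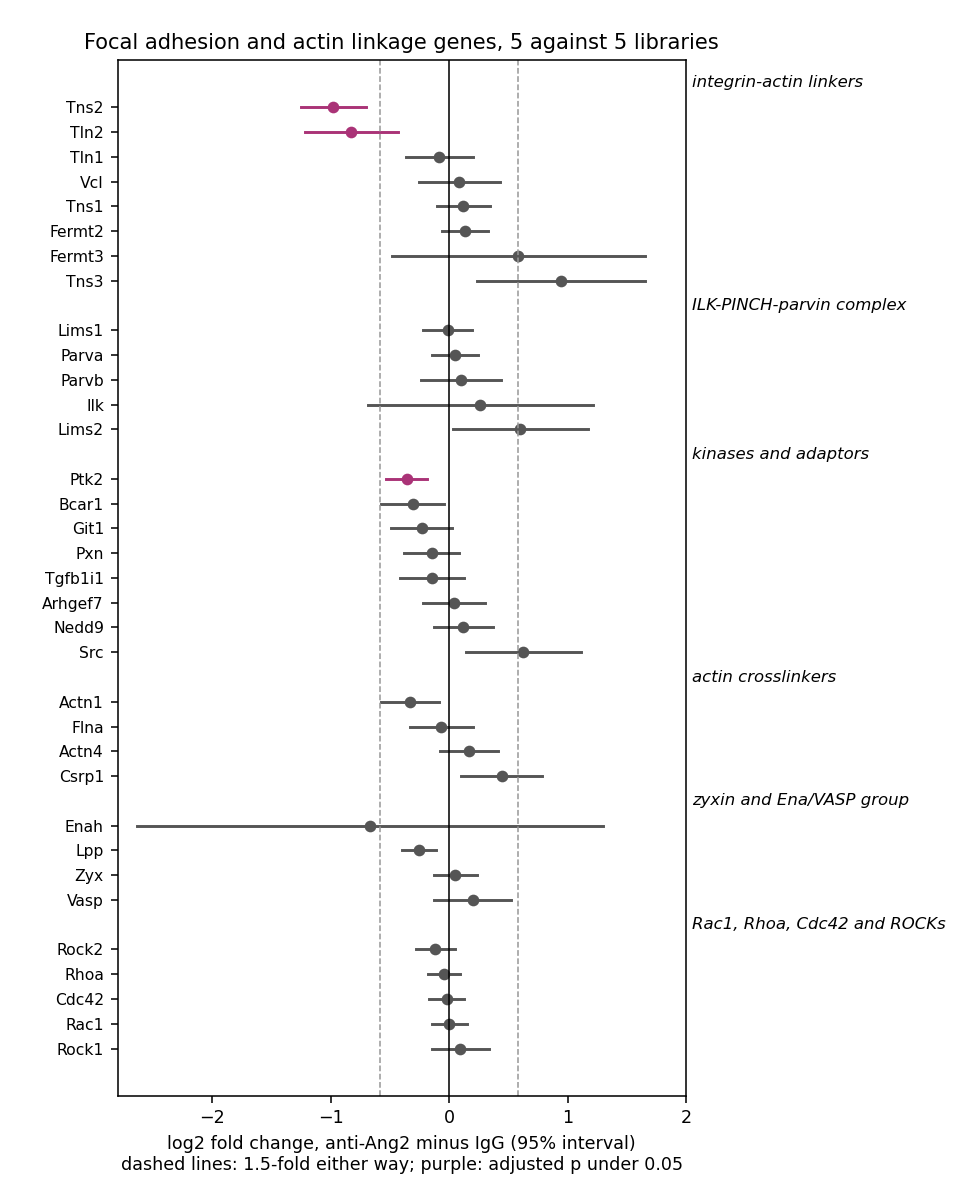
Log2 fold change of each of the 34 genes, anti-Ang2 minus IgG, with its 95% interval (n = 5 per group), grouped by role; dashed lines mark 1.5-fold either way and purple marks an adjusted p under 0.05. Tns2, Tln2 and Ptk2 lie to the left, most other intervals are short and straddle 0, and the widest belongs to Enah, which had at most 50 counts in a library.

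The largest fall was in Tns2, a tensin: a scaffold that binds the tails of beta integrins through its phosphotyrosine-binding domain. The gene (ENSMUSG00000037003.15, protein-coding) lies on the plus strand of mm10 at chr15:102100413-102116401. In IgG libraries 1 to 5 it measured 373, 439, 520.0, 389 and 538 CPM. In anti-Ang2 libraries 1 to 5 it measured 239, 265, 188, 224 and 229 CPM. The lowest IgG library lay well above the highest anti-Ang2 library, so the groups did not overlap. The means were 452 ± 74.9 and 229 ± 27.7 CPM (SD), a log2 fold change of -0.98 ± 0.13 (SE; 95% interval -1.25 to -0.70; edgeR quasi-likelihood adjusted p = 0.00155). The estimate was -1.01 ± 0.17 with anti-Ang2 libraries 1, 2 and 3 left out (edgeR adjusted p = 0.0403). It was -0.98 ± 0.16 with anti-Ang2 libraries 4 and 5 left out (edgeR adjusted p = 0.0104). With the melanoma sum as a covariate the estimate was -0.87 ± 0.18 and just missed the threshold (edgeR adjusted p = 0.0530). The part of melanoma RNA in the Tns2 counts was not tested.

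The RefSeq promoter window of Tns2 is shown because this gene changed most. The 250 bases before its RefSeq start (GRCm38.p6, plus strand) had a GC content of 63.6%, above the median of 52.4% over all promoter windows, but only 2 CG dinucleotides against a median of 6. This start lies inside the span of the GENCODE gene given above, so the window does not describe sequence upstream of the annotated 5′ end. It held none of the 4 motifs searched on both strands: the CArG box bound by SRF, GGAATG (TEAD), GTAAACA (FOXO) and CCGGAAGT (ETS). It is printed in lower case throughout, since no motif was there to mark.
Tns2 chr15:102102684-102102933: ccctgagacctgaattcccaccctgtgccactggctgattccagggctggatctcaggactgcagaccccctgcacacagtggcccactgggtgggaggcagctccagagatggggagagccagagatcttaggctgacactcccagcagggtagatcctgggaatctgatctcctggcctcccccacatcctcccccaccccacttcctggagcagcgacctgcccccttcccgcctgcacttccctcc

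Its relatives did not follow. Tns1, which also crosslinks actin, was about as abundant in counts and had means of 445 ± 52.1 and 484 ± 55.1 CPM (log2 fold change 0.12, 95% interval -0.11 to 0.35). Tns3, the sparsest of the tensins here, measured 12.7, 9.54, 6.41, 13.7 and 5.65 CPM in the IgG libraries and 24.5, 20.1, 24.3, 14.7 and 8.83 CPM in the anti-Ang2 libraries. Anti-Ang2 libraries 1 to 4 were above every IgG library and library 5 was among them. Its estimate was 0.95 ± 0.32 (95% interval 0.24 to 1.65), which did not pass with edgeR (adjusted p = 0.136) but did in the authors' deposited table (adjusted p = 0.0397). The estimate was 0.17 ± 0.38 once the melanoma sum entered as a covariate, 0.28 ± 0.39 without the 3 anti-Ang2 libraries highest in that sum, and 1.25 ± 0.29 without libraries 4 and 5 (edgeR adjusted p = 0.0351).

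Since 2 genes of a family are read in the same library, their ratio does not depend on how libraries are scaled, and the balance within families was compared for 13 pairs of related genes that were paired with the single-gene results known. The log2 ratio of Tns2 to Tns1 counts was -0.47, 0.06, 0.16, 0.05 and 0.27 in the IgG libraries and -0.80, -0.96, -1.29, -1.07 and -1.29 in the anti-Ang2 libraries. The groups did not overlap. In counts, which are not corrected for gene length, the pair averaged near equality in IgG, and Tns1 exceeded Tns2 in every anti-Ang2 library. The difference was -1.09 (two-sided exact permutation p = 0.00794, the smallest that 5 against 5 libraries allow; 0.0258 after adjustment over the 13 pairs). Per length, in FPKM, Tns2 made up 76.7 ± 3.82% of the summed tensins in IgG and 60.2 ± 3.26% after anti-Ang2, Tns1 went from 22.6 ± 3.58% to 37.7 ± 3.49%, and Tns3 from 0.727 ± 0.351% to 2.10 ± 0.861%. Tns2 thus had the highest level per length of the 3 tensins in both groups.

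**Figure D2:**
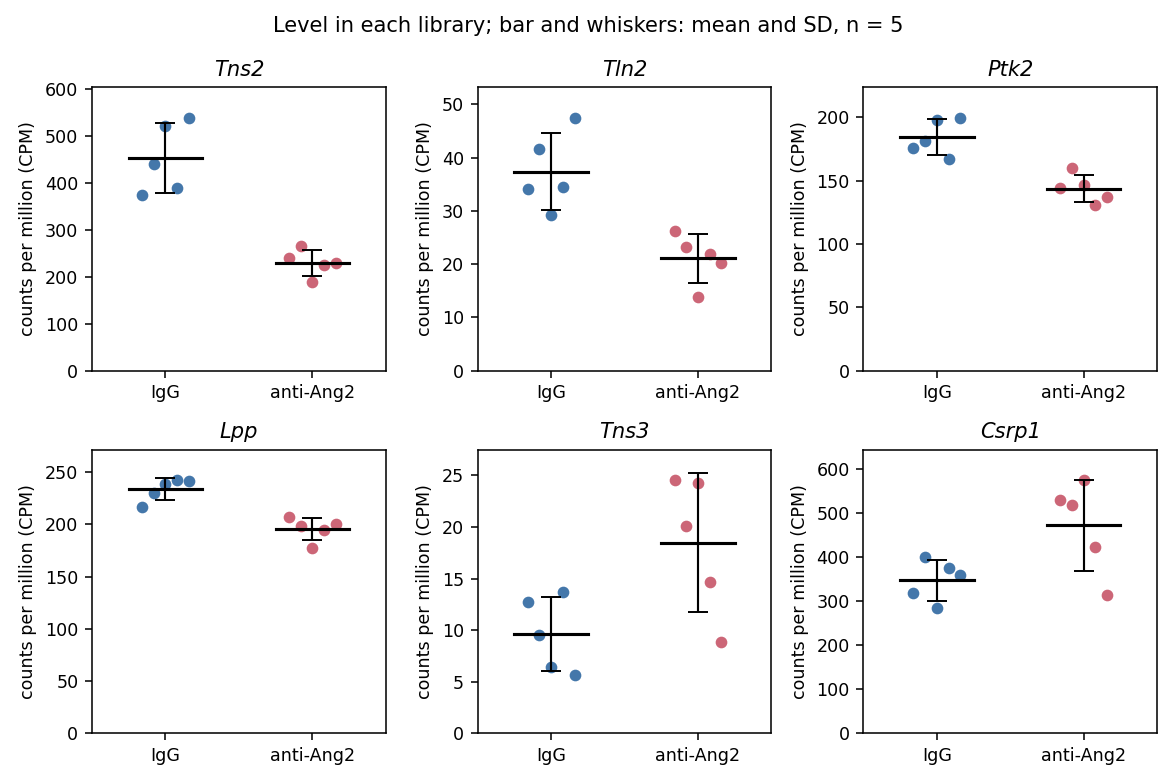
Level of Tns2, Tln2, Ptk2, Lpp, Tns3 and Csrp1 in each library, in CPM on axes that start at 0; points are libraries, bars are means and whiskers SD (n = 5). For Tns2, Tln2, Ptk2 and Lpp every anti-Ang2 library lies below every IgG library, while for Tns3 and Csrp1 the groups overlap through the lowest anti-Ang2 library.

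Talins, the rods that bind integrin tails with the head and actin with the tail, also divided, but here the minor gene fell. Tln2 (ENSMUSG00000052698.15, protein-coding, minus strand, mm10 chr9:67217087-67559703), the minor talin, measured 34.1, 41.6, 29.3, 34.4 and 47.5 CPM in the IgG libraries. It measured 26.2, 23.2, 13.8, 21.9 and 20.2 CPM in the anti-Ang2 libraries. All anti-Ang2 values lay below all IgG values. The means were 37.4 ± 7.18 and 21.1 ± 4.58 CPM, a log2 fold change of -0.83 ± 0.18 (95% interval -1.22 to -0.44; edgeR adjusted p = 0.0259). The call was lost without IgG library 2 (edgeR adjusted p = 0.0687) or IgG library 5 (edgeR adjusted p = 0.0656), with the melanoma (0.133) or macrophage (0.216) sum as a covariate, and without anti-Ang2 libraries 1 to 3 (0.0874) or 4 and 5 (0.0621). The estimate lay between -0.94 and -0.73 in these fits, and was -0.94 ± 0.25 with the melanoma sum. Tln1, the main talin, had means of 494 ± 24.7 and 466 ± 100.2 CPM (-0.08, 95% interval -0.37 to 0.20). Tln2 supplied 3.88 ± 0.653% of talin FPKM in IgG and 2.41 ± 0.594% after anti-Ang2. The log2 ratio of Tln2 to Tln1 went from -3.74 ± 0.26 to -4.47 ± 0.40 with no overlap (two-sided exact permutation p = 0.00794; adjusted p = 0.0258).

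The other linkers showed little. Vcl encodes vinculin, which binds stretched talin and adds further actin attachments, and had means of 180 ± 10.9 and 191 ± 47.4 CPM (0.09, 95% interval -0.26 to 0.43). Of its annotated exon bases 25.5% are shared with Ap3m1, so some of its counts may belong to that gene. Fermt2 encodes kindlin-2, the integrin activator of most adherent cells, and had means of 169 ± 10.4 and 186 ± 21.5 CPM (0.13, 95% interval -0.06 to 0.33). Fermt3, kindlin-3 of blood cells, was far lower, at 1.63 to 7.57 CPM under IgG and 2.95 to 12.5 CPM in anti-Ang2 libraries (0.58, 95% interval -0.49 to 1.66). Macrophage markers also differed widely between these libraries, as given above, and their part in the Fermt3 counts was not tested. Over the 8 linkers, 2 fell and 0 rose, where 2.8% and 1.34% of all genes did, and the median log2 fold change was 0.10.

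Vcl and Fermt2 were the only members whose promoter windows held a CArG box, the element bound by SRF, the transcription factor that answers to actin polymerisation. They are shown for that reason, with the box in capitals, as stretches of RefSeq windows (GRCm38.p6; Vcl on the plus strand, Fermt2 on the minus strand, both 5′ to 3′). The box covers bases -227 to -218 from the start in Vcl and -204 to -195 in Fermt2.
Vcl chr14:20929148-20929210: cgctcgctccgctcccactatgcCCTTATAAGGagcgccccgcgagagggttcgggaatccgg
Fermt2 chr14:45530230-45530299: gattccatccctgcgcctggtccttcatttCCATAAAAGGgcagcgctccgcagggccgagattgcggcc
RefSeq windows, which run from 250 bases before to 50 after a start, were given for 26 of the 34 members, with 36 windows in all. A CArG box was in 2 of the 36 (5.56%) and in 1.63% of all 32851 windows. GGAATG was in 4 (11.1%: Actn4, Flna, Lpp and Vcl) against 14.7% of all windows, CCGGAAGT in 1 (Arhgef7) against 3.89%, and GTAAACA in 0 against 3.65%. These are matches of letters, and the 95% intervals of the log2 fold changes of Vcl and Fermt2 both include 0.

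Among kinases and adaptors, Ptk2 fell. It encodes focal adhesion kinase, the tyrosine kinase that is recruited to engaged integrins and docks Src (ENSMUSG00000022607.14, protein-coding, minus strand, mm10 chr15:73205102-73423280). The IgG libraries measured 175, 181, 197, 167 and 199.6 CPM and the anti-Ang2 libraries 144, 159.5, 147, 131 and 137 CPM. The gap between the groups was narrow, but no library crossed it. The means were 184 ± 14.1 and 144 ± 10.8 CPM, with a log2 fold change of -0.36 ± 0.08 (95% interval -0.53 to -0.19; edgeR adjusted p = 0.0280). The call was lost on leaving out IgG library 2, 3 or 5 or anti-Ang2 library 1, 3 or 4 (edgeR adjusted p up to 0.0853), with the melanoma sum (0.235) or macrophage sum (0.218) as a covariate, with the replicate number as a block (0.0714), and without anti-Ang2 libraries 1 to 3 (0.0771) or 4 and 5 (0.0621). The estimate lay between -0.47 and -0.31 in these fits.

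The partner kinase had a positive estimate. Src, which phosphorylates the scaffolds that focal adhesion kinase gathers, measured 11.8, 12.7, 11.4, 15.7 and 7.29 CPM under IgG and 22.9, 23.1, 16.4, 14.98 and 13.4 CPM in anti-Ang2 libraries. The 3 highest values were anti-Ang2 libraries 1 to 3, and the other 2 were within the IgG range. The log2 fold change was 0.63 ± 0.22 (95% interval 0.14 to 1.11) and did not pass (edgeR adjusted p = 0.151). Fitted with the melanoma sum as covariate, it was 0.20 ± 0.26. Bcar1, the scaffold p130Cas that is phosphorylated on stretch, measured 229, 253, 246, 199 and 274 CPM under IgG and 177, 229, 222, 182 and 158 CPM in anti-Ang2 libraries. Here 3 of the 5 anti-Ang2 libraries were below every IgG library, and the estimate of -0.31 ± 0.12 (95% interval -0.57 to -0.05) did not pass (edgeR adjusted p = 0.190). Its relative Nedd9 had means of 106 ± 14.0 and 115 ± 15.9 CPM (0.12, 95% interval -0.13 to 0.37), and the log2 ratio of Nedd9 to Bcar1 differed by 0.43 (two-sided exact permutation p = 0.0397; adjusted p = 0.0860).

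The remaining adaptors lay close to 0. Pxn, paxillin, a docking protein of young and mature adhesions, had means of 605 ± 61.0 and 546 ± 76.8 CPM (-0.15, 95% interval -0.38 to 0.08). Its relative Tgfb1i1, which encodes Hic-5, had nearly the same estimate (-0.15, 95% interval -0.42 to 0.13), and its share of the pair's FPKM was 25.4 ± 2.18% in IgG and 25.4 ± 3.49% after anti-Ang2. Git1 and Arhgef7 (beta-PIX) form the complex that brings a Rac and Cdc42 exchange factor to paxillin. Git1 had an estimate of -0.23 (95% interval -0.49 to 0.03) and Arhgef7 one of 0.04 (95% interval -0.22 to 0.30). Of these 8 kinases and adaptors 1 fell and 0 rose, against 2.8% and 1.34% of all genes, and the median was -0.15.

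The ILK-PINCH-parvin complex, which couples kindlin to actin, had no member past the threshold (lowest edgeR adjusted p = 0.244, for Lims2). Lims1, the abundant PINCH adaptor, had means of 739 ± 70.7 and 734 ± 77.6 CPM (-0.01, 95% interval -0.22 to 0.20). Lims2, its scarce relative, had means of 11.7 ± 3.64 and 17.8 ± 4.72 CPM (0.60 ± 0.26, 95% interval 0.03 to 1.17), and supplied 4.40 ± 1.40% and 6.67 ± 2.12% of PINCH FPKM. The log2 ratio of Lims2 to Lims1 differed by 0.64 (two-sided exact permutation p = 0.0952; adjusted p = 0.168). Parva (0.05, 95% interval -0.15 to 0.24) and Parvb (0.10, 95% interval -0.24 to 0.44), the parvins that bind actin for the complex, kept a ratio that differed by 0.03 (two-sided exact permutation p = 0.857).

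Ilk itself, the pseudokinase at the centre of the complex, was listed at 1.45 ± 0.496 CPM under IgG and 1.74 ± 0.751 CPM in anti-Ang2 libraries, against 739 CPM for Lims1 in IgG. Its counts were 20 to 174 per library. In the GENCODE annotation 89.7% of its exon bases (2461 of 2744) are also exon of Rrp8 or Taf10 on the opposite strand. The library kit does not mark strand, and how reads in shared exons were counted is not given in the sources used here. The value is therefore one for the part of Ilk that was counted, and its level and change (0.26, 95% interval -0.69 to 1.21) are uncertain. Rac1 shares 51.4% of its exon bases with Daglb and is uncertain in the same way.

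Crosslinkers bundle and brace the filaments that adhesions pull on, and none of the 4 passed. Actn1, the alpha-actinin of stress fibres, measured 104, 139.7, 109.6, 92.6 and 132 CPM under IgG and 91.3, 89.9, 102, 92.9 and 84.5 CPM in anti-Ang2 libraries. The ranges overlapped at the lowest IgG library. Its estimate was -0.33 ± 0.11 (95% interval -0.57 to -0.08; edgeR adjusted p = 0.137). Actn4, the more abundant alpha-actinin, had means of 1463 ± 213 and 1645 ± 178 CPM (0.17, 95% interval -0.08 to 0.42).

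Within libraries, the ratio of the alpha-actinins, a pair formed with the Actn1 result known, did separate the groups. The log2 ratio of Actn1 to Actn4 was -3.89, -3.29, -3.63, -3.76 and -3.77 in the IgG libraries and -4.17, -4.32, -4.16, -4.10 and -4.03 in the anti-Ang2 libraries. No value overlapped, and the difference was -0.49 (two-sided exact permutation p = 0.00794; adjusted p = 0.0258). Actn1 went from 11.3 ± 1.69% to 8.31 ± 0.570% of alpha-actinin FPKM.

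Csrp1, a LIM-domain protein that binds alpha-actinin and zyxin, measured 319, 400.0, 285, 375 and 359 CPM under IgG and 531, 518, 575, 424 and 315 CPM in anti-Ang2 libraries. Anti-Ang2 libraries 1 to 4 were above every IgG library, and library 5 was near the bottom. The estimate was 0.44 ± 0.16 (95% interval 0.10 to 0.79; edgeR adjusted p = 0.148). Without library 5 it was 0.56 ± 0.12 (edgeR adjusted p = 0.0257), without libraries 4 and 5 it was 0.63 ± 0.11 (edgeR adjusted p = 0.0133), and without libraries 1 to 3 it was 0.08 ± 0.15 (edgeR adjusted p = 0.850). Fitted with the melanoma sum as covariate, it was -0.000571 ± 0.137, indistinguishable from 0 (edgeR adjusted p = 0.999). The 3 libraries with the highest melanoma sums were also the 3 highest in Csrp1, in Tns3 and in Src. All 3 came from mice given anti-Ang2, so treatment and melanoma sum cannot be told apart in them. The part of melanoma RNA in the counts of these genes was not tested. Flna, filamin A, which crosslinks actin into networks and binds integrin tails, had an estimate of -0.07 (95% interval -0.33 to 0.20).

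**Figure D3:**
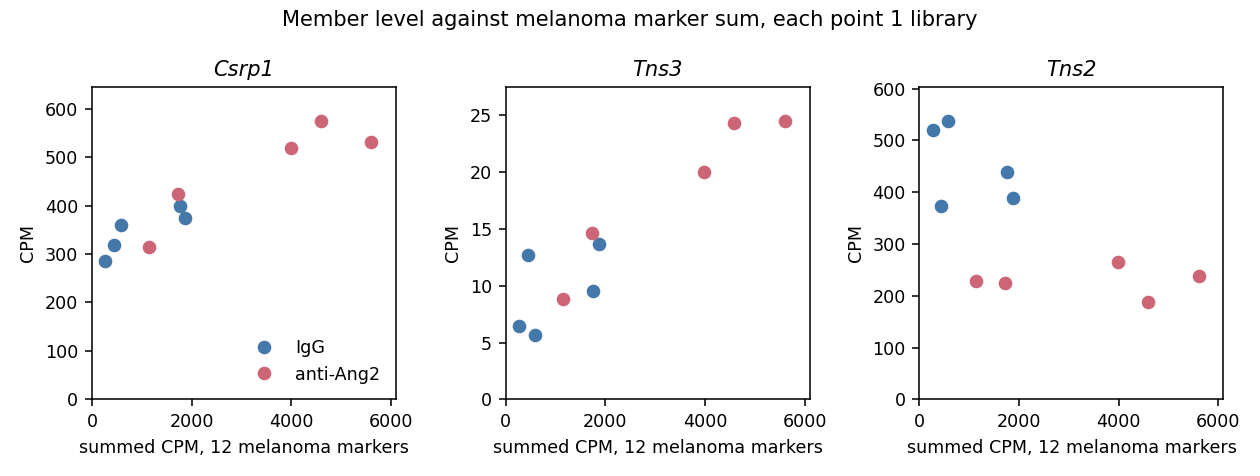
Level of Csrp1, Tns3 and Tns2 (vertical axes, CPM) against the summed level of 12 melanoma markers (horizontal axis, CPM), each point 1 library. Csrp1 and Tns3 are highest in the 3 anti-Ang2 libraries with marker sums of 3988 to 5603. Tns2 lies at 188 to 265 in the anti-Ang2 libraries.

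In the zyxin and Ena/VASP group, which repairs and extends actin at adhesions under load, Lpp came closest to the threshold. Lpp, a LIM protein related to zyxin (ENSMUSG00000033306.14, protein-coding, plus strand, mm10 chr16:24393507-24992578), measured 217, 230.4, 238, 242 and 242 CPM under IgG and 207, 198, 178, 195 and 200.5 CPM in anti-Ang2 libraries. The groups did not overlap. The log2 fold change was -0.26 ± 0.07 (95% interval -0.40 to -0.11; edgeR adjusted p = 0.0543). In the authors' deposited table Lpp passed (adjusted p = 0.00392), as it did with limma-voom and library quality weights (adjusted p = 0.0237). With edgeR it passed in 1 of 10 fits without a library (adjusted p 0.0485 to 0.142) and not with the melanoma sum (0.278) or macrophage sum (0.388) as covariate, the replicate block (0.156) or anti-Ang2 libraries 1 to 3 left out (0.190). The Lpp estimate lay between -0.28 and -0.19 in these edgeR fits. Zyx, zyxin, had means of 530.2 ± 53.1 and 549.9 ± 29.6 CPM (0.05, 95% interval -0.13 to 0.23), and the log2 ratio of Lpp to Zyx went from -1.18 ± 0.14 to -1.49 ± 0.12 with a slight overlap (two-sided exact permutation p = 0.0159; adjusted p = 0.0413).

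Vasp, which elongates actin filaments, had means of 104 ± 11.5 and 119 ± 27.5 CPM (0.20, 95% interval -0.13 to 0.52). Enah, the Ena/VASP relative also called Mena, had only 1 to 50 counts per library, or 0.557 ± 0.515 CPM under IgG and 0.347 ± 0.329 after anti-Ang2. At that depth its interval ran from -2.63 to 1.29, so that even a large change would not have been detectable. The median over the 4 genes was -0.10.

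Rac1, Rhoa, Cdc42 and the ROCK kinases had the narrowest range of log2 fold changes among the 6 groups of genes, from -0.12 to 0.09. Rhoa, which drives contraction, had means of 292 ± 13.4 and 284 ± 9.51 CPM (-0.04, 95% interval -0.17 to 0.09). Rac1, which drives lamellipodia, had means of 719.7 ± 16.3 and 719.2 ± 49.8 CPM (-0.00, 95% interval -0.15 to 0.15). Cdc42, which drives filopodia and polarity, had means of 747 ± 37.4 and 736 ± 34.4 CPM (-0.02, 95% interval -0.17 to 0.13). Each of these intervals excludes a change of 1.5-fold. The effector kinases that phosphorylate myosin light chain and its phosphatase gave similar results: Rock1 had an estimate of 0.09 (95% interval -0.15 to 0.34) and Rock2 one of -0.12 (95% interval -0.28 to 0.05). Transcript levels say nothing of how much of these GTPases was in the active, GTP-bound state.

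Across the 13 family pairs, 5 differed after adjustment: Tns2 to Tns1, Tns2 to Tns3, Tln2 to Tln1, Actn1 to Actn4 and Lpp to Zyx. Of these, the ratio of Tns2 to Tns3 moved farthest, from 5.63 ± 0.81 to 3.72 ± 0.67, and both tensin ratios share Tns2. As a single gene, Tns3 had an estimate of 0.17 ± 0.38 with the melanoma sum as covariate. No ratio was fitted with a marker sum, so the part of RNA from other cells in the ratios was not tested. Tns2, Tln2 and Lpp separated the groups as single genes too, and Actn1 had an unadjusted edgeR p of 0.0133. The pairs were formed with these results known. The 5 ratios are therefore not independent support, and adjustment over the 13 pairs does not cover that choice. The other 8 did not pass: besides the pairs given above, these were Tns3 to Tns1 (0.82, two-sided exact permutation, adjusted p = 0.168), Rock2 to Rock1 (-0.20, adjusted p = 0.218), Enah to Vasp (-1.03, adjusted p = 0.444), Fermt3 to Fermt2 (0.43, adjusted p = 0.544) and Tgfb1i1 to Pxn (-0.01, adjusted p = 0.929). With 4 libraries in a group the adjusted exact p of the 5 pairs rose to as much as 0.0516, or 0.0619 for Lpp to Zyx, while each difference kept its sign on leaving out any 1 of the 10 libraries.

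**Figure D4:**
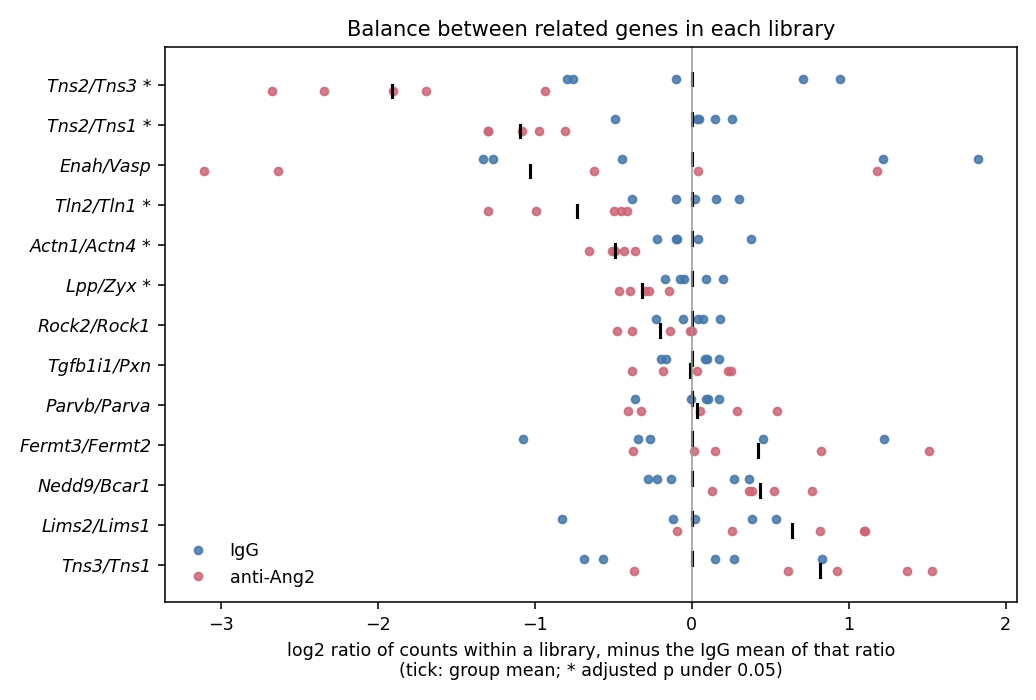
Log2 ratio of counts between related genes in each library, with the IgG mean of that ratio subtracted (horizontal axis); points are libraries, ticks are group means and an asterisk marks an adjusted exact permutation p under 0.05. The tensin, talin and alpha-actinin pairs with an asterisk show no overlap between groups, Lpp/Zyx overlaps slightly, and the parvin and paxillin pairs centre on 0.

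Levels of different genes were set side by side per length, in the deposited FPKM of the IgG group. Cdc42 (259 ± 18.1 FPKM) and Actn4 (245 ± 31.8 FPKM) stood highest, with overlapping libraries, followed without overlap by Csrp1 (183 ± 23.9), Rac1 (165 ± 4.18) and Lims1 (156 ± 18.0), whose libraries overlapped in turn. Zyx (101 ± 7.74 FPKM) and Tns2 (97.9 ± 14.0 FPKM) came next, below every library of Lims1 and, for Tns2, above every library of Pxn. Tns2 was thus among the more abundant adhesion transcripts of these cells, and after anti-Ang2 it stood at 50.5 ± 5.31 FPKM. A broad middle ran from Pxn (75.8 FPKM) and Flna (67.2 FPKM) through Bcar1 (54.2), Tln1 (51.8) and Rock2 (46.7) down to Rock1 (21.9 FPKM). Within it, the only neighbours with no overlap were Flna and Bcar1. Lpp (15.03 FPKM) lay apart from its neighbours on both sides. At the low end were Lims2 (7.12), Parvb (6.05), Arhgef7 (4.36), Src (2.78), Tln2 (2.09), Fermt3 (1.61), Tns3 (0.889), Ilk (0.543) and, apart from the rest, Enah (0.0264 FPKM). The places of Rac1, Vcl and Ilk in this order are uncertain because of exons shared with other genes.

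**Figure D5:**
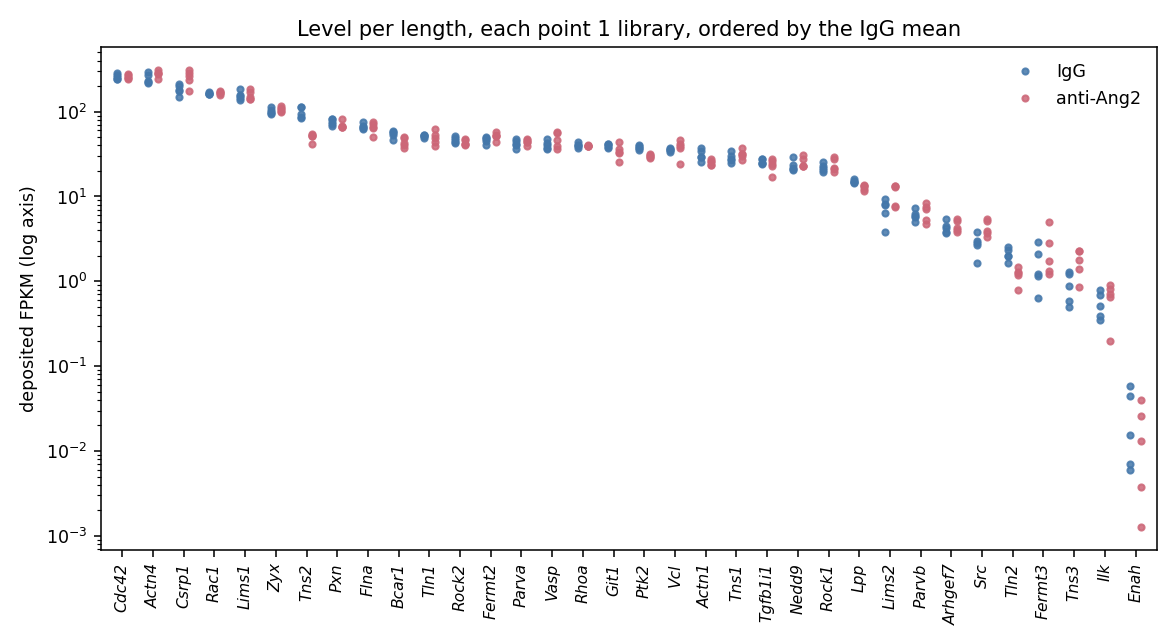
Deposited FPKM of each of the 34 genes in every library (log axis), ordered from left to right by the IgG mean; blue points are IgG and red points anti-Ang2 libraries. Levels span from 259 FPKM for Cdc42 to 0.0264 FPKM for Enah, and the 2 colours part visibly at Tns2 and Tln2.

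By the rule that no library of 1 group falls within the other, 4 members separated the treatments, Tns2, Tln2, Ptk2 and Lpp, all of them lower after anti-Ang2. That is 11.8% of the 34 against 6.1% of all genes tested. In the authors' deposited table, members with an adjusted p under 0.05 numbered 5 (14.7%, against 9.09% of the genes with a value there): Tns2 (1.54e-10), Tln2 (0.000731), Ptk2 (0.00120), Lpp (0.00392) and, in the other direction, Tns3 (0.0397).

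The wider adhesion and actin pathway was read from 4 further lists of textbook genes. Besides the members, 122 of these genes were tested, of which 1 rose (0.820%) and 5 fell (4.10%), against 1.34% and 2.8% of all genes, with a median log2 fold change of -0.02. Of 20 integrin subunits tested, 2 fell and 0 rose. Itga9, the integrin alpha9 chain known for its role in lymphatic valves, had means of 354 ± 22.2 and 164 ± 55.1 CPM (-1.11 ± 0.21, edgeR adjusted p = 0.0128). Itga6, a chain of laminin receptors, had means of 498 ± 39.5 and 359 ± 26.8 CPM (-0.47 ± 0.08, edgeR adjusted p = 0.00739). The median over the integrins was 0.02. The Itga6 call was lost with the melanoma covariate (edgeR adjusted p = 0.122), the macrophage covariate (0.0595) or without anti-Ang2 libraries 1 to 3 (0.0530), and the Itga9 call with the macrophage covariate (0.0701). The Itga6 estimates in these fits were -0.46 ± 0.12, -0.50 ± 0.10 and -0.52 ± 0.10, and that of Itga9 was -1.29 ± 0.28.

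Of 46 other genes of the adhesion plaque, 1 fell: Flnc, filamin C, with means of 142 ± 13.4 and 88.0 ± 24.1 CPM (-0.69 ± 0.16, edgeR adjusted p = 0.0359), a call that was lost on leaving out 8 of the 10 libraries in turn. Of 46 genes of actomyosin and actin turnover, 2 fell. Mylk, myosin light chain kinase, which triggers contraction, had means of 55.7 ± 9.51 and 26.8 ± 3.13 CPM (-1.05 ± 0.13, edgeR adjusted p = 0.00142) and passed whichever library was left out. Tagln2, transgelin-2, an actin-binding protein, had means of 720.5 ± 91.8 and 534 ± 61.4 CPM (-0.43 ± 0.11, edgeR adjusted p = 0.0472) and passed in 2 of 10 such fits. Tagln2 did not pass under RLE scaling (edgeR adjusted p = 0.0513), and with the melanoma sum as covariate neither Flnc (0.180) nor Tagln2 (0.0719) did. The estimates with that covariate were -0.81 ± 0.24 for Flnc and -0.62 ± 0.13 for Tagln2.

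The list of SRF with its cofactors and classic targets, 24 genes tested of which 6 are members, held the 1 gene that rose. Ctgf, a secreted matricellular protein and a target of YAP as well as of SRF, had means of 376 ± 94.5 and 1009.6 ± 136 CPM (1.42 ± 0.16, edgeR adjusted p = 0.00111), and passed whichever library was left out. The other 23 genes of that list did not pass, and its median log2 fold change was 0.08.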

How the data were processed

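RNA of sorted LEC was isolated with the PicoPure kit, and libraries were made from 0.5 ng with SMART-Seq v4, which does not mark strand, and the NEBNext ChIP-Seq kit, per the labels' protocols. STAR, featureCounts and DESeq2 with mm10 are named, per the submitters' processing notes; versions and the annotation are not given in the sources used here. The authors deposited a raw count per gene and library, which was the input of every test. The FPKM the authors deposited served to compare levels between genes. The deposited TPM were treated as a score and not used further, the deposited baseMean, a signal, served as a check, and the log2 fold changes and adjusted p-values of the authors are quoted as theirs. Groups came from the treatment label, and replicates are described as independent.

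Counts of 16240 genes were tested with edgeR 4.0.16 in R 4.3.3 (quasi-likelihood F test, two-sided, TMM, filterByExpr with minimum count 10 and minimum total 15, treatment as the only factor). Calls required a p under 0.05 after Benjamini-Hochberg adjustment over all genes tested. Standard errors and 95% intervals were derived from the same test. Marker sums and family log2 ratios (counts plus 0.5) were tested by exact permutation of all arrangements, two-sided. Libraries of a group differed by more than counting noise (a chi-square of at least 50.9 per degree of freedom). Alternatives were RLE and upper-quartile scaling, no filter, DESeq2 1.42.0, limma-voom 3.58.1 with library quality weights, marker sums as covariates, a replicate block, and leaving out libraries. Gene positions came from GENCODE M21 (mm10; 23435 of 23510 IDs matched without version, all 34 members, 23 with the same version), promoters from RefSeq (GRCm38.p6). The script was tested on simulated data. Python 3.11.15 with pandas 2.3.3, numpy 2.4.6 and matplotlib 3.10.9 was also used.

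The members and lists were chosen with earlier results of these data known. All 34 members were to be named, with library values for those called and the 6 next by p, as were up to 4 called genes of each pathway list. The family pairs, the printed promoters, and the alternatives that left out anti-Ang2 4 and 5 together, members with shared exons, or single libraries from the ratios were chosen after seeing the data. A further list of related genes is not reported here.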

Additional observations from a re-analysis of the deposited data

Results flagged for a closer look

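In 4 of 84 sets of 5 libraries (68 of them single members in 1 group, of which 2), the highest library stood apart from the rest by more than Dixon's 95% critical value of 0.71 times the range, which chance does in about 1 of 20 groups. Pxn was at 679.6 CPM in anti-Ang2 library 2, against 539 CPM in the nearest anti-Ang2 library. Rhoa was at 301.0 CPM in the same library, against 282 CPM in the nearest. The blood endothelial marker sum was 5100 CPM in anti-Ang2 library 4, against 3237 CPM in the nearest. The macrophage and monocyte marker sum was 177 CPM in IgG library 1, against 31.1 CPM in the nearest IgG library.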

How the results depend on the processing

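Under RLE or upper-quartile scaling and without a filter, 3 members were called lower and 0 higher, as in the edgeR result reported. DESeq2 called 4 lower and 1 higher (Tns3), and limma-voom with library quality weights, which changes tool and weighting at once, 4 lower and 2 higher (Tns3 and Csrp1). These fits also called more genes in all (810 and 670 higher, 880 and 780 lower, against 217 and 454). The count of members lower was 0 when the melanoma sum was a covariate, 1 with the macrophage sum, 1 without anti-Ang2 libraries 1 to 3, and 1 without libraries 4 and 5, where 2 were higher. In these 4 fits fewer genes were called lower in all (91, 108 and 178), except without libraries 4 and 5 (598, with 531 higher). The median log2 fold change of the members was -0.10 without libraries 1 to 3. Leaving out each library in turn gave 0 to 2 members higher (2 without anti-Ang2 library 5), 1 to 4 lower (1 without IgG library 2 or 5), a median of -0.02 to 0.04, and 4 to 7 members without overlap (7 without anti-Ang2 library 5). Over all genes these fits called 82 to 326 higher (326 without anti-Ang2 library 5) and 259 to 468 lower (292 and 320 without IgG library 2 and 5). Log2 fold changes then ran from -1.04 to -0.91 for Tns2, which passed in 10 of 10 fits, from -0.92 to -0.70 for Tln2 (8 of 10) and from -0.40 to -0.33 for Ptk2 (4 of 10). With the melanoma sum as covariate the Csrp1 estimate was near 0, at -0.000571. The fibroblast marker sum was higher after anti-Ang2 by 76.0 when summed as FPKM, while the CPM means were 441 in IgG and 432 in anti-Ang2. Among these markers the means of Dcn (144 to 332 CPM), Lum and Fbln1 rose. Those of Col3a1 (127 to 41.2 CPM), Col1a1, Col1a2 and the rest were lower. The cause of the difference between FPKM and CPM was not tested.

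With the title number as a replicate block, 2 members were lower (Tns2 and Tln2) and 0 higher, and 268 genes were lower and 82 higher in all. Among same-numbered libraries the deviations from group means correlated at -0.125 to 0.113, with 1 of the pairs over 0.1, so the numbers were not taken to pair the libraries. Enah, Ilk and Fermt3 were under 10 CPM in both groups, and the interval half-width was over 0.5 for 5 members. Intervals assume that the spread between these libraries is that between mice.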
